A study of Mus musculus with 19 samples.

Results

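The 7 genes described here belong to the Notch signalling pathway and were followed in sorted mouse neural crest and Schwann cell lineage cells on 19 arrays. They were the receptors Notch1 and Notch2, the ligand Dll1, the receptor modifier Lfng, the nuclear factor Rbpj and the target genes Hes1 and Hes5. Every probe set to which the array annotation gives one of these symbols was taken, which made 11 of the 12488 probe sets on the array and 7 of the 8251 genes with a symbol of their own. The cells were green fluorescent and came from mice in which GFP is driven by the promoter of the proteolipid protein gene Plp. This reporter marks neural crest stem cells and, later, glia, so that a sort on it selects cells by promoter activity and not by lineage. The groups were E9.5 (neural crest stem cells of the trunk, 3 arrays), then sciatic nerve at E12 (labelled Schwann cell precursors, 3 arrays), E14 (Schwann cells, 3 arrays), E16 (early Schwann cells, 4 arrays), E18 (Schwann cells, 3 arrays) and P0, the day of birth (Schwann cells, 3 arrays). All 6 stages carry the same reporter and no other allele or treatment is named in the labels. The step between E9.5 and E12 is also a step from trunk to nerve, so stage and body region cannot be told apart there. Nothing in the labels ties each array to animals of its own. The p-values therefore speak of the scatter among these samples alone, which may be technical.

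Notch receptors are membrane proteins that are cleaved when a ligand of the Delta or Jagged family on a neighbouring cell binds them. The released intracellular part enters the nucleus, joins the DNA-binding protein RBPJ and switches on target genes, among them the repressors of the Hes family. In the neural crest and in nerve the pathway is known for favouring glial over neuronal fate and for acting on Schwann cell precursors before myelination.

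The expression index, computed by the authors, is an intensity that applies to 1 probe set only, so that levels of different probe sets were not set against each other. The marker sums given below add the indices of different probe sets, so their brightest members weigh most. A floor of 68.5, at the 25th percentile of the table, was applied before log2 was taken. The 19 arrays had median intensities between 174 and 207, and between 22.6% and 27.2% of their probe sets lay at or below the floor. Sox10, Erbb3, Tfap2a and Ednrb, which mark neural crest and its glia, were above the floor on every array. Of the other markers in that list, Foxd3 was at or below the floor on 1 P0 array. S100b was at or below it on all arrays of E9.5, E12, E14 and E16, on 1 E18 array and on 2 P0 arrays. The GAPDH 3' over 5' signal ratio, a measure of how far amplified RNA is shortened, was between 3.18 and 4.53 at E12, against 2.33 and 3.41 as the lowest and highest values at E9.5. It was between 3.84 and 9.12 at E16 and between 4.69 and 7.69 at P0. The E9.5 range did not overlap those of E16 and P0, nor the E12 range that of P0. In those comparisons, a fit with this ratio as a covariate cannot tell stage and RNA shortening apart, whether a call is lost or gained. No P0 array was closest to another P0 array by Spearman rho over the 10414 tested probe sets. P0 replicate 1 was closest to E16 replicate 1 (rho 0.932), P0 replicate 3 to E18 replicate 3 (0.928) and P0 replicate 4 to E16 replicate 4 (0.951). E16 replicates 1 and 2 were closest to each other (0.964), but E16 replicates 3 and 4 to E18 replicate 1 (0.952 and 0.968).

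The promoters of the ligand, a receptor, the modifier and a target gene are shown because the first pair changed between trunk and nerve in opposite directions and the second pair carries matches to the RBPJ core motif. Each is the stretch of 250 bases before a start of the gene in RefSeq (GRCm38.p6), 5' to 3' on the strand of the gene. For Dll1, which has 2 such windows, the more downstream one is shown. Capitals mark the letters TGGGAA or, on the other strand, TTCCCA.
Notch1 (chr2:26503823-26504072, minus strand): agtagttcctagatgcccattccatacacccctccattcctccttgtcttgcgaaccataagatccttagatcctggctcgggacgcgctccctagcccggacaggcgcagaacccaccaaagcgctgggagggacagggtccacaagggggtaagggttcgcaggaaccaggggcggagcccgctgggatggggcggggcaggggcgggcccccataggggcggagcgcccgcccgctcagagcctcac
Dll1 (chr17:15375824-15376073, minus strand): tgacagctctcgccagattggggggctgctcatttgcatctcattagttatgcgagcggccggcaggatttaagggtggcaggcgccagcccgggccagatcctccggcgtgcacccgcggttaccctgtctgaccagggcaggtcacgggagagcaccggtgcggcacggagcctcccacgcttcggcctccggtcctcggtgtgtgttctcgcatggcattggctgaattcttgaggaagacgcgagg
Lfng (chr5:140607091-140607340, plus strand): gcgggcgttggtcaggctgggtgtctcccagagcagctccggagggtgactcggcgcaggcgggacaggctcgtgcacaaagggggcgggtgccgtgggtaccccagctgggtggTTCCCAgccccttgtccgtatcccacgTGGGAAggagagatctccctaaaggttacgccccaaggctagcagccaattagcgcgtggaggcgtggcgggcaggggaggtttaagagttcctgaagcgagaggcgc
Hes5 (chr4:154960673-154960922, plus strand): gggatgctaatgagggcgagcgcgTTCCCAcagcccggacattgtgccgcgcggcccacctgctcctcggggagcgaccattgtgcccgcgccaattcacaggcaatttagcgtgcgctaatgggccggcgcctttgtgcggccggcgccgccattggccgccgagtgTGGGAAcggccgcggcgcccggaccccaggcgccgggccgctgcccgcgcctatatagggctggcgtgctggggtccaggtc

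Of the 7 genes, 6 were matched to a promoter entry, with 8 windows in all, and Hes1 had none. The RBPJ core was found on either strand in 4 of the 8 windows, those of Lfng, Hes5 and both windows of Rbpj, which overlap and share a match. In the Hes5 window the matches begin 226 and 82 bases before the start, and in the Lfng window 135 and 108 bases before it. A pair of matches in 1 window occurred in 3 of the 8 windows, against 2.77% of the 32851 RefSeq promoter windows of the same length, while 21.6% of those windows hold at least 1 match. The windows of Notch1, Notch2 and Dll1 hold no match to these letters. The letters CACNAG, the N-box bound by Hes proteins, occurred in 3 windows (Notch1, Notch2 and Lfng), against 36.7% of all windows.

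**Figure D1:**
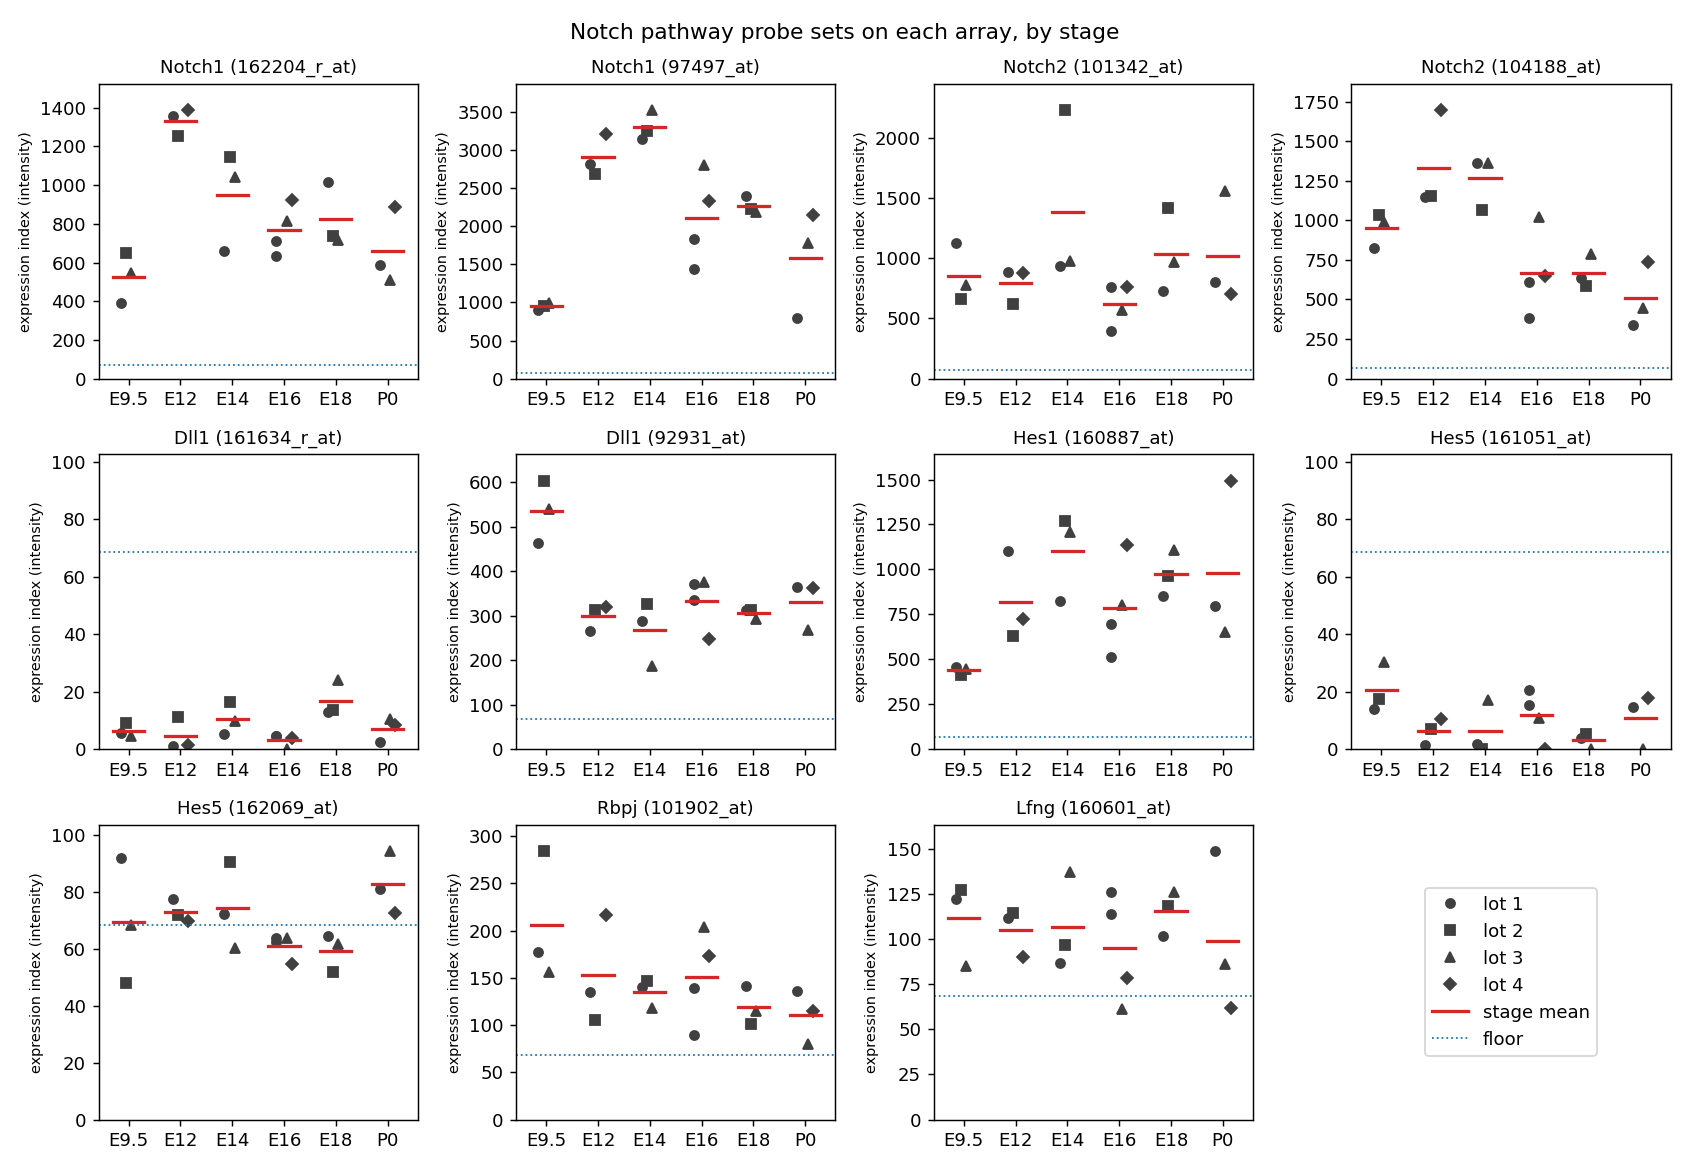
Expression index of each member probe set on each array (vertical axis, intensity, linear scale) by stage, E9.5 to P0 (horizontal axis), with 1 point per array shaped by lot, a red bar for the stage mean and a dotted line at the floor of 68.5. Both Notch1 probe sets have their lowest stage mean at E9.5, Dll1 92931_at is highest there, and Hes5 161051_at and Dll1 161634_r_at stay below the floor on all 19 arrays.

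Notch1, the main receptor of the pathway in the early nervous system, was measured by probe sets 97497_at and 162204_r_at, and both rose between trunk and early nerve. The intensities of 97497_at were 902, 958 and 987 at E9.5, 2821, 2689.6 and 3212 at E12, and 3141, 3253 and 3519 at E14. They were 1435, 1833, 2806 and 2334 at E16, 2399.8, 2225 and 2186 at E18, and 799, 1785 and 2150.2 at P0. All E12, E14, E16 and E18 arrays lay above all E9.5 arrays, while P0 replicate 1 fell below them. The level at E12 was 3.06-fold that at E9.5 (log2 difference 1.61 ± 0.28 SE, adjusted p = 0.00087 by limma with Benjamini-Hochberg adjustment over 10414 probe sets), and E14 was 3.48-fold above E9.5 (adjusted p = 0.00025).

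The second Notch1 probe set gave the same direction for E12. Its intensities were 389, 649 and 543 at E9.5, 1358, 1252 and 1386 at E12, and 659.9, 1147 and 1044 at E14. They were 714, 634, 814 and 921 at E16, 1014, 737 and 719 at E18, and 588, 508 and 887 at P0. E12 stood above every other stage, with all its arrays higher than the arrays of E9.5, E14, E16, E18 and P0. The log2 difference of E12 over E9.5 was 1.37 ± 0.25 (2.58-fold, limma adjusted p = 0.0013). Both Notch1 calls for E12 over E9.5 passed under every alternative tried, with adjusted p up to 0.014, and within lot 1 and lot 2 the log2 differences were 1.65 and 1.49 for 97497_at and 1.81 and 0.95 for 162204_r_at.

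Notch1 was lower at birth than in early nerve. At P0 97497_at averaged 1578 ± 699, against 2907 ± 272 at E12 (SD, n = 3 each), a log2 difference of -0.997 ± 0.28 (limma adjusted p = 0.024). For 162204_r_at the means were 661 ± 200 at P0 and 1332 ± 70.7 at E12, a log2 difference of -1.05 ± 0.25 (adjusted p = 0.0087). The P0 and E12 arrays did not overlap in either probe set. The 97497_at call was lost without P0 replicate 1 (log2 difference -0.57, adjusted p = 0.11), without any 1 of E12 replicates 1, 2 and 4 (adjusted p = 0.06, 0.054 and 0.08) and with the GAPDH ratio as a covariate (-0.59, adjusted p = 0.22), and the 162204_r_at call without P0 replicate 3 (adjusted p = 0.051) and with that covariate (-0.66, adjusted p = 0.097). Both were lost in a fit of the E12 and P0 arrays alone (adjusted p = 0.22 and 0.073). The summed intensity of 6 neural crest and glia markers was also low on P0 replicate 1, at 5395, against 12848 and 13156 on the other P0 arrays and 10684 to 14565 at E12. At E16, replicates 1 and 2, both of lot 1 and the lower Notch1 arrays, summed to 6739 and 7383 and the other arrays to 13209 and 12154, and the part of this in the result was not tested.

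In the order of stage means, 97497_at ran E14, E12, E18, E16, P0 and E9.5 from high to low, and 162204_r_at ran E12, E14, E18, E16, P0 and E9.5. No pair of neighbours in either order differed at an adjusted p under 0.05. P0 against E16 was not called for either probe set, and the P0 level of 97497_at over E9.5 had a log2 difference of 0.62 (adjusted p = 0.12), which became 1.05 (adjusted p = 0.002) without P0 replicate 1. Over the 19 arrays, the 2 probe sets had a Pearson r of 0.76 on log2 values, given as a description of arrays that share stages.

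Notch2, the second receptor, was also measured by a pair of probe sets, and these did not follow each other. The intensities of 104188_at were 825, 1035 and 987 at E9.5, 1149, 1151 and 1694 at E12, and 1363, 1068 and 1363 at E14. They were 384, 611, 1023 and 645 at E16, 635, 587 and 786 at E18, and 337, 449 and 739.7 at P0. The P0 arrays lay below all arrays of E9.5, E12 and E14. P0 averaged 509 ± 208, against 1331 ± 314 at E12 (SD, n = 3 each), a log2 difference of -1.44 ± 0.31 (limma adjusted p = 0.0042), or 2.71-fold lower at P0. The call was lost only in the fit of these 2 stages' arrays alone (adjusted p = 0.087), and the difference within lots 1 and 4 was -1.77 and -1.20.

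Probe set 101342_at of Notch2 read 1124, 662 and 777 at E9.5, 883, 619 and 882 at E12, and 939.5, 2229 and 975 at E14. It read 395, 760.4, 575 and 758 at E16, 727, 1419 and 969 at E18, and 803, 1557 and 705 at P0. E14 replicate 2, P0 replicate 3 and E18 replicate 2 were the 3 highest arrays, and the remaining arrays of their stages lay within the range of the other stages. P0 over E12 was 0.29 ± 0.38 on the log2 scale (95% confidence interval -0.51 to 1.09, adjusted p = 0.67), opposite in sign to the change of 104188_at. The Pearson r between the Notch2 probe sets was 0.117 over 19 arrays. The direction of Notch2 at birth therefore holds for 104188_at only.

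**Figure D2:**
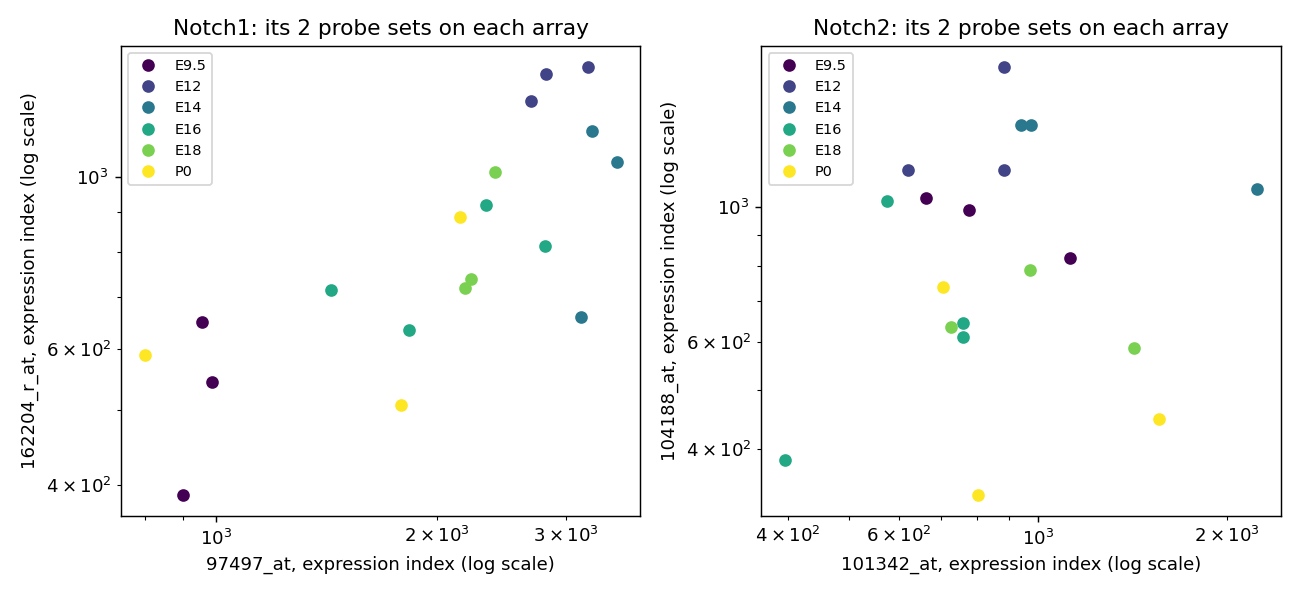
Expression index of Notch1 162204_r_at against 97497_at (left) and of Notch2 104188_at against 101342_at (right), in intensity on log axes, 1 point per array, coloured by stage. The Notch1 pair rises together over the 19 arrays (r = 0.76), whereas the Notch2 pair does not (r = 0.117).

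Dll1, a Delta-family ligand that is presented to Notch on neighbouring cells, was lower in nerve than in trunk. Probe set 92931_at read 463, 602 and 539 at E9.5, 264, 312 and 319.7 at E12, and 288, 325 and 186 at E14. It read 336, 371, 375 and 247 at E16, 313, 313 and 292 at E18, and 365, 268 and 361 at P0. Each of the 3 trunk arrays was above all 16 nerve arrays, and the nerve stages overlapped one another. E12 averaged 299 ± 30.0, against 535 ± 69.6 at E9.5 (SD, n = 3 each), a log2 difference of -0.84 ± 0.21 (limma adjusted p = 0.012), or 1.79-fold lower at E12. The 5 nerve stages were each called lower than E9.5, with log2 differences between -1.04 (E14, adjusted p = 0.0021) and -0.70 (P0, adjusted p = 0.02), but these 5 comparisons share the E9.5 arrays. The E12 call was lost without E9.5 replicate 2 (-0.75, adjusted p = 0.06) and without E12 replicate 1 (-0.75, adjusted p = 0.062), and the difference within lots 1 and 2 was -0.81 and -0.95. The calls for E16, E18 and P0 were each lost without E9.5 replicate 2 (adjusted p = 0.08, 0.051 and 0.084), those for E16 and P0 also without E9.5 replicate 3 (0.052 and 0.051), and that for P0 without P0 replicate 3 (0.098) and in a fit of the E9.5 and P0 arrays alone (0.065). With the GAPDH ratio as a covariate the calls for E16 (-0.74, adjusted p = 0.096) and P0 (-0.74, adjusted p = 0.14) were lost as well.

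Within the nerve, Dll1 showed no called change, and the F-test over the 5 nerve stages gave an adjusted p of 0.67. P0 over E12 was 0.14 on the log2 scale, with a 95% confidence interval from -0.30 to 0.58. The order of stage means was E9.5, P0, E16, E18, E12 and E14, and the step between E9.5 and P0 was the only neighbouring pair called for any member. The second Dll1 probe set, 161634_r_at, lay between 0 and 24.1 on all 19 arrays, below the floor, and was not tested. In bulk samples such as these, fewer cells that make a transcript and less of it per cell cannot be told apart.

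Lfng, a glycosyltransferase that adds sugars to the Notch receptor and changes which ligands it answers to, was low throughout. Its intensities were 122, 127 and 85.1 at E9.5, 112, 114 and 89.9 at E12, and 86.9, 96.7 and 137 at E14. They were 114, 126, 61.4 and 78.5 at E16, 102, 118 and 126 at E18, and 148, 86.3 and 61.9 at P0. All 6 stages overlapped, and the F-test over 6 stages gave an adjusted p of 0.91. The difference of E12 over E9.5 was -0.07 on the log2 scale, with a 95% confidence interval from -0.67 to 0.53.

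Rbpj, which brings the Notch intracellular domain to DNA, had its highest stage mean in trunk. Its intensities were 177, 284 and 156 at E9.5, 135, 106 and 217 at E12, and 141, 146 and 119 at E14. They were 139.5, 89.5 and 204 on E16 replicates 1 to 3 and 173 on the fourth, 142, 102 and 115 at E18, and 137, 80.2 and 115 at P0. The E14, E18 and P0 arrays lay below all E9.5 arrays, while E12 and E16 overlapped with E9.5. P0 averaged 110 ± 28.4, against 206 ± 68.5 at E9.5 (SD, n = 3 each), a log2 difference of -0.88 ± 0.32 with an adjusted p of 0.048 by limma. That call was lost under 9 of the alternatives, among them the GAPDH covariate (-0.04, adjusted p = 0.97) and leaving out E9.5 replicate 1 or 2 or P0 replicate 3 or 4 (adjusted p = 0.069, 0.22, 0.2 and 0.063), and the F-test over 6 stages gave 0.29.

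Hes1, a repressor that is a direct target of Notch signalling and also responds to other pathways, was lowest in trunk. Its intensities were 456, 414 and 445 at E9.5, 1099.8, 629 and 724 at E12, and 823, 1270.35 and 1209 at E14. They were 514, 694, 803 and 1135 at E16, 854, 965 and 1109.95 at E18, and 796, 653 and 1492 at P0. All 16 nerve arrays were above the 3 trunk arrays. The level was called higher than at E9.5 at E14 (2.47-fold, log2 difference 1.30, limma adjusted p = 0.007), E18 (1.15, adjusted p = 0.012) and P0 (1.07, adjusted p = 0.016).

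At E12 Hes1 averaged 818 ± 249, against 438 ± 21.9 at E9.5 (SD, n = 3 each), a log2 difference of 0.86 ± 0.31 that missed the threshold (adjusted p = 0.081). It passed with the GAPDH ratio as a covariate (1.16, adjusted p = 0.019) and with array weights (0.82, adjusted p = 0.017). E16 over E9.5 likewise missed it (0.78, adjusted p = 0.064) and passed under 4 of the alternatives, among them the GAPDH covariate (1.34, adjusted p = 0.023) and leaving out E16 replicate 1 (0.97, adjusted p = 0.028). The E18 call was lost without E18 replicate 3 (adjusted p = 0.053), and the P0 call without P0 replicate 4 (0.72, adjusted p = 0.073) and without E9.5 replicate 2 (adjusted p = 0.055), with array weights (adjusted p = 0.076) and in a fit of the E9.5 and P0 arrays alone (adjusted p = 0.093).

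Among the nerve stages Hes1 gave an F-test adjusted p of 0.63, and its order was E14, E18, P0, E12, E16 and E9.5. Between P0 and E12 its difference had opposite signs within the lots, -0.47 in lot 1 and 1.04 in lot 4, and the pooled value of 0.21 was not called (adjusted p = 0.71). Notch1 97497_at and Hes1 had a Pearson r of 0.671 over the 19 arrays, which differ in stage and body region.

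Hes5, another repressor of the family and in the developing nervous system a widely used readout of Notch activity, was not measured well above the floor. Probe set 162069_at lay between 48.2 and 92.1 at E9.5, between 69.8 and 77.4 at E12, between 60.3 and 90.7 at E14, and between 54.6 and 64.0 at E16. It lay between 52.0 and 64.6 at E18 and between 72.8 and 94.3 at P0. All 4 E16 arrays and all 3 E18 arrays were at or below the floor, and the fit set them to it, so that no fold against these stages is given. The F-test over 6 stages gave an adjusted p of 0.57. The other probe set, 161051_at, lay between 0 and 30.5 on the 19 arrays and was not tested.

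Counted together, 3 of the 9 tested member probe sets were called between E12 and E9.5, where 14.1% of all tested probe sets were called. The pair of Notch1 probe sets rose, as did 9.7% of all, and Dll1 92931_at fell, as did 4.41% of all. Over the whole table the median log2 difference was 0.01. Against E9.5, 4 members were called at E14 (17.6% of all probe sets), 2 at E16 (22.5%), 3 at E18 (22.7%) and 4 at P0 (28%), all with the same E9.5 arrays. Besides the calls given above, these counts hold Notch1 162204_r_at at E14 (0.84, adjusted p = 0.028, lost without E9.5 replicate 1 or 3 or E14 replicate 2 or 3) and Notch2 104188_at at P0 (-0.97, adjusted p = 0.027, lost without E9.5 replicate 2 or 3 or P0 replicate 1 or 3). With the GAPDH ratio as a covariate that Notch2 difference was -0.20 (adjusted p = 0.8), without the lot-1 array of P0 and those of E16 it was -0.71 (adjusted p = 0.064), and in a fit of the E9.5 and P0 arrays alone its adjusted p was 0.1. The Notch1 162204_r_at call was also lost with array weights (0.56, adjusted p = 0.068) and in a fit of the E9.5 and E14 arrays alone (adjusted p = 0.11). The counts also hold Notch1 97497_at at E16 (1.103, adjusted p = 0.0063) and E18 (1.26, adjusted p = 0.0037). With 9 probe sets of 7 genes, nothing about the pathway as a whole is read from these counts.

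Between E14 and E12 limma called 0 of 9 members (2.09% of all probe sets), and 0 had an unadjusted p under 0.05. Between E16 and E14 it called 0 (1.69% of all), with 3 members at an unadjusted p under 0.05, namely Notch1 97497_at and both Notch2 probe sets, all lower at E16. Notch2 104188_at was -1.001 ± 0.29 there (adjusted p = 0.12) and passed under 5 of the alternatives, among them the replicate block (-1.12, adjusted p = 0.025), the lot as a block (-1.10, adjusted p = 0.038) and leaving out E16 replicate 3 (-1.24, adjusted p = 0.026). No member was called between E18 and E16 (0.0768% of all, 0 at an unadjusted p under 0.05) or between P0 and E18 (0.125% of all, 1 at an unadjusted p under 0.05). E18 against E14 (2.8% of all, 1 at an unadjusted p under 0.05), P0 against E16 (2.62% of all, 0 at an unadjusted p under 0.05) and E18 against E12 (11% of all, 2 at an unadjusted p under 0.05) gave 0 calls as well. For E18 against E14, Notch2 104188_at (-0.92, adjusted p = 0.17) passed with the GAPDH covariate (-1.14, adjusted p = 0.031) and array weights (0.00028). Notch1 97497_at (-0.54, adjusted p = 0.53) passed with array weights (0.019) and in a fit of the E14 and E18 arrays alone (0.033). In the E18 comparison with E12, Notch2 104188_at had a log2 difference of -0.98 (limma adjusted p = 0.053). It passed with the replicate block (-0.91, adjusted p = 0.04), the lot as a block (0.042), the GAPDH covariate (0.04), array weights (8e-05) and the floor at the 40th percentile (0.05). It also passed in a fit of these stages alone (0.034). The other Notch2 probe set, 101342_at, went the other way and was called higher at E18 than at E12 with array weights (0.80, adjusted p = 0.018). Notch1 162204_r_at (-0.71, adjusted p = 0.085) passed there with array weights (9e-04) and in the fit of these stages alone (0.038).

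Between P0 and E12 3 of 9 members were called, where 16.4% of all probe sets were. All 3 were receptor probe sets and were lower at P0, as were 11.8% of all probe sets. E16 against E12 gave 2 calls (11.5% of all), Notch1 162204_r_at (-0.80, adjusted p = 0.038) and Notch2 104188_at (-1.06, adjusted p = 0.026), both lower at E16. The calls were lost under 11 and 8 of the alternatives, and when the arrays of lot 1 at those later stages, E16 and P0, were left out the differences were -0.62 (adjusted p = 0.23) and -0.69 (adjusted p = 0.13). P0 against E14 also gave 2 (6.37% of all), Notch1 97497_at (-1.18, adjusted p = 0.018) and Notch2 104188_at (-1.38, adjusted p = 0.011), both of which were lost without P0 replicate 1 (adjusted p = 0.057 and 0.059), without E14 replicate 1 (0.055 and 0.055), without replicate 3 of E14 (0.075 and 0.055) and in a fit of the E14 and P0 arrays alone (0.32 and 0.17). Over the 5 nerve stages, the F-test passed for 2 of 9 members, Notch1 97497_at (adjusted p = 0.048) and Notch2 104188_at (adjusted p = 0.0085), with 13.1% of all probe sets passing. For Notch1 97497_at this was lost under 17 of the alternatives, with adjusted p up to 0.098. Over all 6 stages it passed for 5 of 9 (29% of all), and was lost for Hes1 under 8 of the alternatives and for Dll1 under 3, among them the GAPDH covariate (adjusted p = 0.069).

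**Figure D3:**
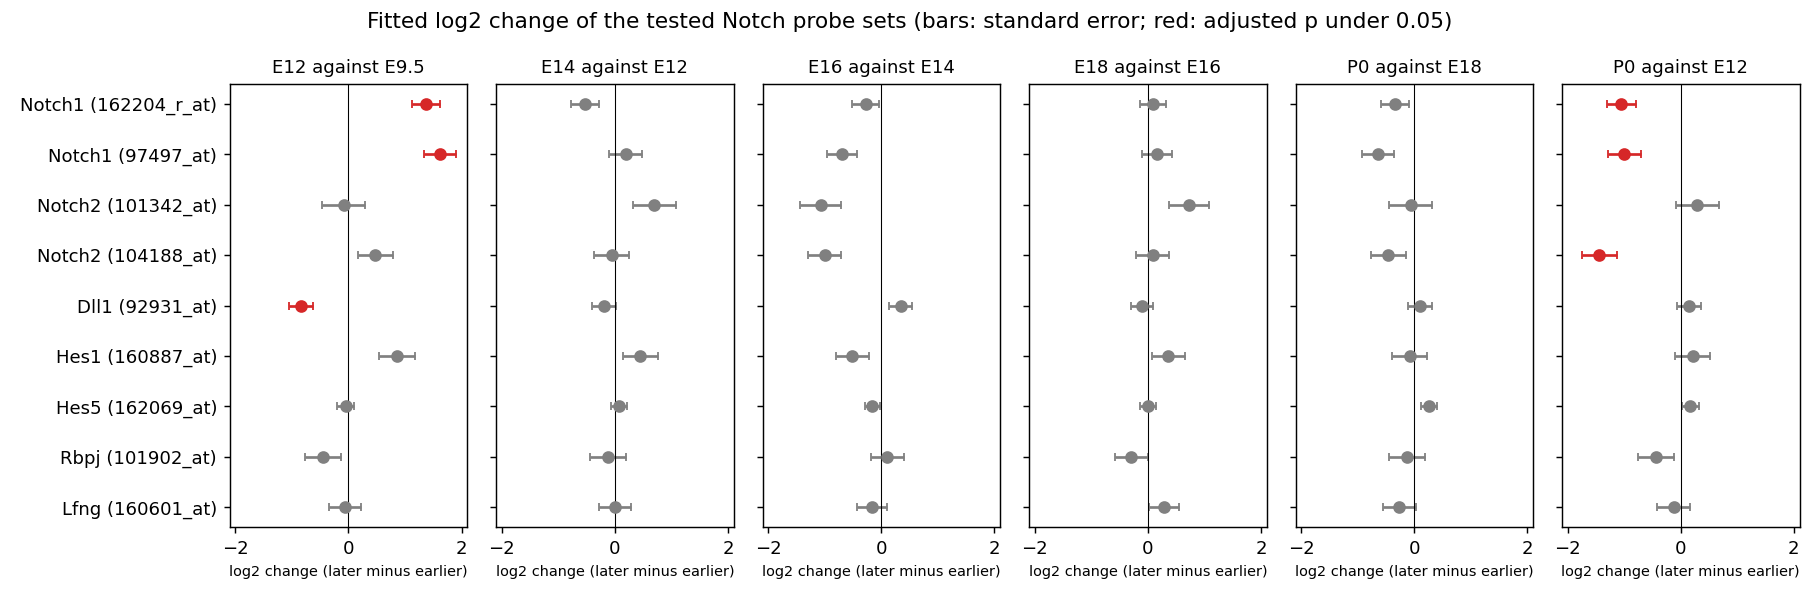
Fitted log2 difference, later minus earlier stage, with its standard error (horizontal axes) for the 9 tested member probe sets (vertical axis) in 6 comparisons of stages. Points in red, with an adjusted p under 0.05 by limma, are the 2 Notch1 probe sets and Dll1 92931_at for E12 against E9.5, and the 2 Notch1 probe sets and Notch2 104188_at for P0 against E12.

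Markers of neural crest and glia, and markers of other cells, moved between the same stages, and their part in the results was not tested. Between E12 and E9.5, 9.7% of all tested probe sets were called higher and 4.41% lower. The summed intensity of 6 neural crest and glia markers was between 10684 and 14565 at E12, against 3842 and 5299.7 as the lowest and highest sums at E9.5, with Ednrb (log2 difference 3.52) and Erbb3 (1.03) called higher. Ednrb alone averaged 5052 at E12, against 461 at E9.5. For 10 fibroblast markers the sums were between 11754 and 14172 at E12, against 1633 and 2263 at E9.5, with 4 of 10 called higher and 1 lower. Their median log2 difference was 0.265. For 11 macrophage markers the sums were between 2267 and 4591 at E12, against 1203 and 1432 at E9.5, with 5 of 9 tested called higher while Fcer1g and Lyz2 stayed below the floor on all 19 arrays. For 8 erythroid markers they were between 3380 and 10591.5 at E12, against 2197 and 2401 at E9.5, with 3 of 8 called higher. By P0 the macrophage sums were between 1220 and 1633 and the fibroblast sums between 21983 and 29801.

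Of 6 tested neural tube markers and 7 tested somite and mesoderm markers, none was called between E12 and E9.5 (14.1% of all probe sets). The part of these tissues in the results was not tested. The 8 neural tube markers summed to between 1244 and 1320.5 at E12, against 1373 and 1541 at E9.5. Of the 8, 6 were above the floor on every E9.5 array and 6 on every E12 array. Pax6 and Nkx2-2 were below the floor on all 19 arrays. The 12 somite and mesoderm markers summed to between 1198 and 1276 at E12, against 1102 and 1888 at E9.5, with Tcf15, Myf5, Foxc1 and Pax9 below the floor throughout. Of the 12, 4 were above the floor on every E9.5 array and 5 on every E12 array. The 10 neuron markers summed to between 1518 and 1808 at E12, against 1987 and 2195 at E9.5, with 0 of 6 tested called and Elavl4, Isl1 and Syt1 below the floor throughout. Of the 10, 3 were above the floor on every E9.5 array and 4 on every E12 array. The 10 endothelium markers summed to between 1848 and 2251 at E12, against 1686 and 1879.7 at E9.5, and Emcn was called lower (-1.14). The 6 mural cell markers summed to between 922 and 1016 at E12, against 694 and 1080.1 at E9.5, with 0 of 5 tested called.

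Of the other receptors and ligands of the pathway, 7 of 12 genes were on the array and tested. Between E12 and E9.5, 2 rose, none fell and the median log2 difference was 0.12. Over all tested probe sets, 9.7% rose and 4.41% fell. Cntn1, an adhesion molecule reported to act as a Notch ligand, averaged 365 ± 90.0 at E12, against 85.6 ± 11.5 at E9.5 (SD, n = 3 each), a log2 difference of 2.07 (adjusted p = 0.00065). Mfap2, a microfibril protein, averaged 742 ± 157 at E12, against 185 ± 19.6 at E9.5 (1.99, adjusted p = 0.00014). Between P0 and E12 1 rose and 2 fell, where 16.4% of all probe sets were called in either direction and 11.8% as lower. The receptor Notch3 averaged 100 ± 24.5 at P0, against 341 ± 99.2 at E12, a log2 difference of -1.75 (adjusted p = 7.7e-05), and its arrays were 78.3, 95.5 and 127 at P0, against 239, 346 and 437 at E12. Between E16 and E14 Mfap2 had a log2 difference of -1.01 that missed the threshold (adjusted p = 0.073) and passed under 6 of the alternatives, among them the replicate block (-1.21, adjusted p = 0.00058) and the lot as a block (-1.17, adjusted p = 8e-04). Mfap2 was lower at P0 than at E12 (-1.60, adjusted p = 0.001) and Cntn1 higher (1.20, adjusted p = 0.028, lost without E12 replicate 1, E12 replicate 2 or P0 replicate 4).

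Of the enzymes that glycosylate or cleave the receptor, 8 of 13 were tested. Between E12 and E9.5, 2 rose (9.7% of all probe sets) and none fell (4.41% of all), with a median log2 difference of 0.48. Psen2, a catalytic subunit of gamma-secretase, read 99.6, 113 and 109 at E12, while all 3 E9.5 arrays were below the floor, so that E12 was at least 1.56-fold higher (adjusted p = 0.0013). It was called lower again at E14 than at E12 (adjusted p = 0.0059, but 0.065 with a lower floor, at the 10th percentile) and at P0 than at E12 (adjusted p = 0.005). Furin, which cuts the receptor on its way to the surface, was higher at E12 than at E9.5 (1.71, adjusted p = 0.037), a call lost under 9 of the alternatives, among them leaving out any 1 array of the 2 stages. On the E16 and P0 arrays Furin differed by lot, with 2708 and 2379.7 on the lot-1 arrays of E16 and 677 and 765 on the others. The lot-1 array of P0 read 2865 and the others 650.4 and 903, while the lot-1 array of E18 read 453.

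Of the proteins that work with RBPJ in the nucleus, 11 of 21 were tested. Between E12 and E9.5 none fell (4.41% of all probe sets) and 3 rose (9.7% of all), with a median of 0.06. These were the coactivators Kat2b (471 ± 115 at E12, against 87.6 ± 9.90 at E9.5, log2 difference 2.40, adjusted p = 1.2e-05) and Crebbp (1.03, adjusted p = 0.0079) and the corepressor Tle1 (1.41, adjusted p = 0.00073). Between P0 and E12 4 fell (11.8% of all probe sets) and none rose (median -0.48). Tle1 averaged 147 ± 25.7 at P0, against 773 ± 292 at E12, a log2 difference of -2.34 (adjusted p = 5.3e-06), and it was already lower at E14 than at E12 (-1.21, adjusted p = 0.011, lost without E12 replicate 2 or E14 replicate 2 or 3 and in a fit of these stages alone) and at E16 than at E14 (-1.48, adjusted p = 0.0014). The corepressor Ctbp2 (-1.78, adjusted p = 0.0028) and Crebbp (-1.07, adjusted p = 0.0057) were also lower at P0 than at E12, the Crebbp call being lost with quantile normalization (-0.82, adjusted p = 0.054). The fourth was Tle4, named after its values were seen (-1.04, adjusted p = 0.018), a call lost under 5 of the alternatives, among them leaving out E12 replicate 4 or P0 replicate 3.

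Of the other target genes, 9 of 15 were tested. Fabp7, a fatty acid binding protein of early glia, was highest at E12 and E14. It read 4819, 4270.2 and 5376 at E12, against 1691, 1516 and 1369 at E9.5 (log2 difference 1.66, adjusted p = 0.012). It read 1460.2, 547, 937 and 1137 at E16, against 4718, 4245 and 4752 at E14 (-2.25, adjusted p = 0.0033), and 144, 85.6 and 404 at P0, 28.1-fold below E12 (-4.81, adjusted p = 5.8e-07). Hey1, a repressor related to the Hes proteins, averaged 430 ± 64.2 at P0, against 163 ± 57.8 at E12, a log2 difference of 1.44 (adjusted p = 5e-04). The median log2 difference of the 9 targets was 0.10 for E12 over E9.5 and 0.00165 for P0 over E12.

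Of 8 tested modulators of receptor and ligand turnover, out of 15, none was called between E12 and E9.5 (14.1% of all probe sets). Cdk8, a kinase that marks the Notch intracellular domain for degradation, was lower at P0 than at E12 (-1.45, adjusted p = 0.0056), a call lost with the GAPDH ratio as a covariate (-1.01, adjusted p = 0.063). Of 7 tested proneural factors, which Hes proteins repress, out of 8, 2 fell between E12 and E9.5 (4.41% of all probe sets). For Neurog2 all 3 E12 arrays were below the floor, against 98.4, 152 and 179 at E9.5, so that E12 was at least 2.03-fold lower (adjusted p = 3e-04). Neurod4 was also below the floor on the E12 arrays, at least 1.43-fold lower than at E9.5 (adjusted p = 0.041), a call lost under 8 of the alternatives, among them leaving out E9.5 replicate 2 or any E12 array. In a fit of the E12 and P0 arrays alone, the calls of Notch3, Tle1 and Fabp7 passed, while those of Mfap2, Cntn1, Psen2, Crebbp, Ctbp2, Tle4, Hey1 and Cdk8 did not (adjusted p between 0.062 and 0.13). None of the 6 lists gave a call between E18 and E16 (0.0768% of all probe sets) or between P0 and E18 (0.125% of all) in limma with a mean per stage.

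**Figure D4:**
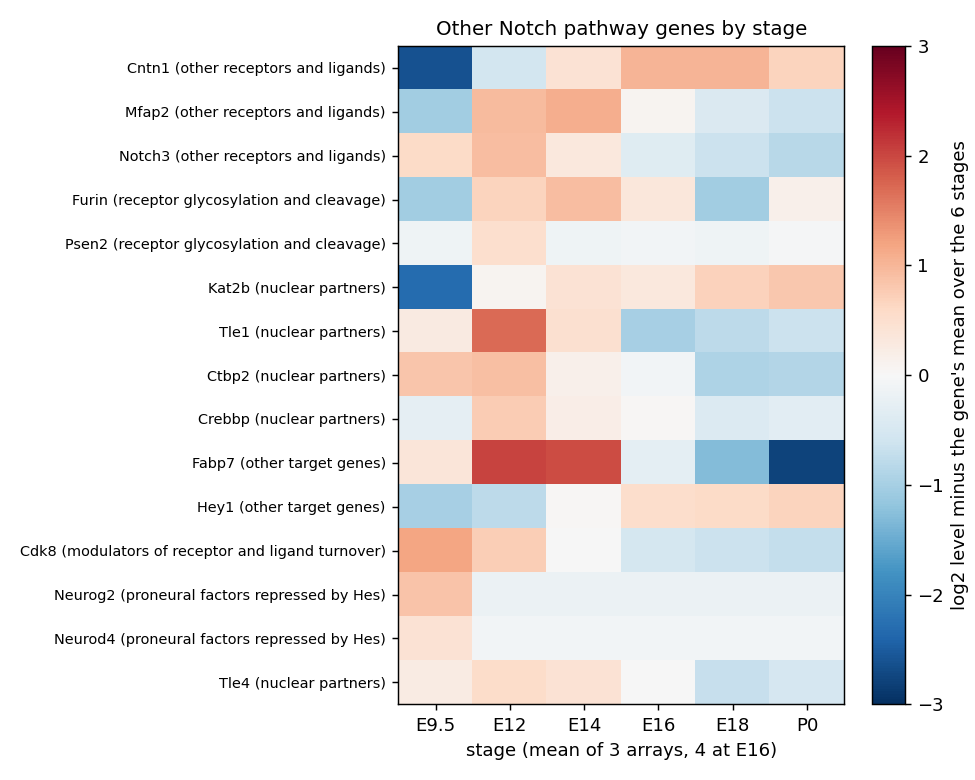
Log2 stage mean minus the mean over the 6 stages (colour, blue below and red above 0) for 15 genes of the other pathway lists (rows) at each stage (columns). Cntn1 and Kat2b are lowest at E9.5, Fabp7 is high at E12 and E14 and lowest at P0, and Neurog2 and Neurod4 are highest at E9.5.

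The genes whose patterns over the 19 arrays were most like those of the members were found by Pearson r on log2 values. For Notch1 97497_at they were Dab2 (0.951), Aldh2 (0.937) and Epb41l4a (0.929), and for Notch1 162204_r_at Aak1 (0.871), Sfrp1 (0.87) and Rev3l (0.87). For Notch2 104188_at they were Zmynd8 (0.905), Chd1 (0.904) and Oaz2 (0.9). For Dll1 they were Usp24 (0.861), Hspa4 (0.858) and Riox2 (0.83). For Hes1 they were Junb (0.933), Phlda1 (0.869) and Selenok (0.864). None of the genes named for one member probe set was among those named for another, and the points share stage, lot and RNA quality.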

How the data were processed

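RNA of sorted GFP-positive cells was measured on 19 Affymetrix mouse arrays, 1 per sample. Per the labels, dChip's smoothing spline was used by the authors for normalization, and they estimated probe sensitivities from 18 arrays and then computed a model-based expression index per probe set and array. The values were deposited as intensity on a linear scale, and the labels do not name the array that is not among the 18. The number of arrays limits the precision.

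Probe sets were named through the platform annotation of the array, and 10833 had 1 symbol, 396 several and 1193 none. The gene identifiers of all 11 member probe sets matched the RefSeq table (GRCm38.p6). Values were floored at 68.5 (25th percentile), log2 transformed and, for the 10414 probe sets above the floor on at least 3 arrays, fitted with a mean per stage in limma 3.58.1 (R 4.3.3), two-sided, with Benjamini-Hochberg adjustment over all of them and a threshold of 0.05. The F-tests are the moderated F-tests of the same fit. The fit was tested on simulated data. Other settings tried were floors at the 10th and 40th percentile, quantile normalization, no filter, the GAPDH 3' over 5' ratio as a covariate, the lot or the replicate number as a block, array weights, an intensity trend, only the arrays of both stages, and leaving arrays out.

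Per the labels, the lot of each array follows the replicate number except for E16 replicate 2. The p-values given come from the fit without a block unless a block is named, and the replicate block is an alternative fit. Deviations from stage means had a mean correlation of 0.0219 over 38 pairs of the same replicate number, 0.042 over 39 pairs of the same lot and -0.015 over 111 pairs of different lots.

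The members and gene lists were chosen with earlier results of these data known. Every member probe set is named. From each other pathway list, up to 4 genes with the largest change among those called are named, and for each member past the F-test over 6 stages the 3 genes of highest Pearson r. Gene lists: other receptors and ligands, receptor glycosylation and cleavage, nuclear partners, other targets, modulators, proneural factors and cell markers. Figures were drawn with matplotlib 3.10.9.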

Additional observations from a re-analysis of the deposited data

Results flagged for a closer look

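The Dll1 probe set 161634_r_at had an intensity of 0 on E16 replicate 3, set apart from the other 3 E16 arrays by 0.854 of the range of the group. All values of this probe set are below the floor of 68.5. E16 is the only stage with 4 arrays and so the only one tested in this way, and chance sets apart about 1 in 20 groups.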

How the results depend on the processing

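Over 72 results on the members (6 comparisons of stages and the F-tests), 1424 recomputed values gave 1367 on the same side of the threshold, 40 with a lost call, 17 with a gained call and 0 calls that turned round, and 68 uncalled values changed sign. Over the 81 results of the other 9 pairs of stages, 1350 recomputed values gave 63 lost calls, 34 gained calls and 0 calls that turned round, and 57 uncalled values changed sign. The counts of members that follow are given without the share of all probe sets called under the same setting. A change in a count may therefore follow the whole table, and nothing about the members is read from it. The count of members called over the 5 nerve stages was 2 and became 1 with the floor at the 10th percentile, 1 with no filter and 4 with array weights. For P0 against E12 the count of 3 became 1 with the GAPDH ratio as a covariate and 0 with only the arrays of both stages. For E16 against E14 the count of 0 became 1 with the GAPDH ratio, 1 with the lot as a block, 1 with the replicate block and 2 with array weights, and array weights also gave 1 for E14 against E12 and 1 for E18 against E16. The E18 against E16 call was Notch2 101342_at, higher at E18 (1.125, adjusted p = 0.032). With array weights that probe set also passed the F-tests over 6 stages (adjusted p = 0.027) and over the nerve stages (adjusted p = 0.024). The replicate block moved no other count of members in the 6 comparisons and the F-tests by over 1.5 times. Among single results it also gained Mfap2 (-1.21, adjusted p = 0.00058) and Notch3 (-0.75, adjusted p = 0.017) for E16 against E14 and Notch2 104188_at for E16 against E9.5 (-0.71, adjusted p = 0.043), and lost Neurod4 for E12 against E9.5 (-0.53, adjusted p = 0.056). Leaving out each array gave counts from 2 to 3 for E12 against E9.5, from 2 to 3 for P0 against E12, from 0 to 1 for E16 against E14, from 3 to 5 over 6 stages and from 1 to 3 over the nerve stages. The lowest over 6 stages came without E9.5 replicate 2 or without E9.5 replicate 3, where Dll1 and Hes1 lost their calls. The causes of these changes were not tested. Leaving arrays out also leaves fewer degrees of freedom. Low signal limits the 4 lowest probe sets. Hes5 161051_at and Dll1 161634_r_at were below the floor on all arrays and not tested, while for Hes5 162069_at and Lfng a fall below the floor would not be seen in full.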
